A study of Aspergillus nidulans with 6 samples.

Results

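The *spoC1* locus lies near one end of the chromosome III sequence of *A. nidulans*, and its AtfA binding is described here as 3 peak regions between positions 29361 and 33180 of that chromosome, in the coordinates of the deposited peak lists. These regions were chosen by position alone, as the merged regions that overlap this interval of 3820 bp, after peaks had been seen there. They are 3 of the 707 regions into which the peaks of all libraries merge, and they hold 18 of the 2723 peaks. ChIP-seq was done on conidia, the asexual spores, with an antibody against the FLAG tag. There were 2 replicates each of MSB Tr. (3 d), conidia of 3 d cultures treated with 0.04 mM menadione sodium bisulfite (MSB, which raises intracellular superoxide), of Untr. (3 d), untreated conidia of the same age, and of Untr. (2 d), untreated conidia of 2 d cultures. All 6 libraries share one strain, which carries the markers *pyrG89*, *pyroA4* and *veA+*, lacks the original *atfA* gene (Δ*atfA*::*AfupyrG+*) and is complemented with a vector-borne *atfA*-3XFLAG::*pyroA+* that has the native *atfA* promoter and the *trpC* terminator. The spores came from surface cultures on agar. The study calls the replicates biological, but whether each came from a culture of its own is not given, so p values measure the spread between these libraries only. No list of an untagged strain or of input DNA was used here, and peak lists hold no expression, so the conidial identity of the samples was not checked.

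*spoC1* is a cluster of neighbouring genes first recognised because their transcripts accumulate in conidia and not in growing hyphae. The functions of most of its products are unknown, and its loss has little visible effect on sporulation. AtfA is a bZIP transcription factor, the counterpart of Atf1 of *Schizosaccharomyces pombe*. It acts downstream of the HogA/SakA stress MAPK and supports the stress tolerance of conidia, and factors of this family bind DNA at CRE-type elements.

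Both genes at the locus are annotated as conidium-specific RNAs of unknown function. Their symbols are not settled, since the study gives *spoC1-C1C* and *spoC1-C1D* to AN10628 and AN5086 in one table and the other way round in another, so the locus numbers are used here. The regions were tied to genes through the distances between peak centres and transcription start sites (TSS) that the study lists for each gene. All 5 listed distances of AN5086 fell on peak centres for a single TSS at position 29310, while the next best place in chromosome III met 4. For AN10628 all 6 fell on peak centres for a TSS at position 30993, and the next best place met 4. In both cases the gene runs toward lower positions (minus strand), so the pair lies head to tail, with 1683 bp between their start sites. The region from 29361 to 30060 (700 bp) was tied to AN5086 and that from 30761 to 31300 (540 bp) to AN10628. The third region, from 32521 to 33180 (660 bp), was tied to no gene. In the RefSeq gene order AN5087, AN5086, AN10628, AN10629 and AN10626 follow each other, and of these only the *spoC1* pair is in that curated list. Whether the others have distances in the uncurated list was not checked. The link of the third region to a promoter was therefore not tested.

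AtfA peaks were called in all 6 libraries in each of the 3 regions. Of all 707 regions, 250 (35.4%) had a peak in every library. Presence entered the choice of the locus, so nothing is read from this count. Each library had exactly 3 peaks there, 1 per region, separated by 700 bp and by 1220 bp between the outermost bounds.

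**Figure D1:**
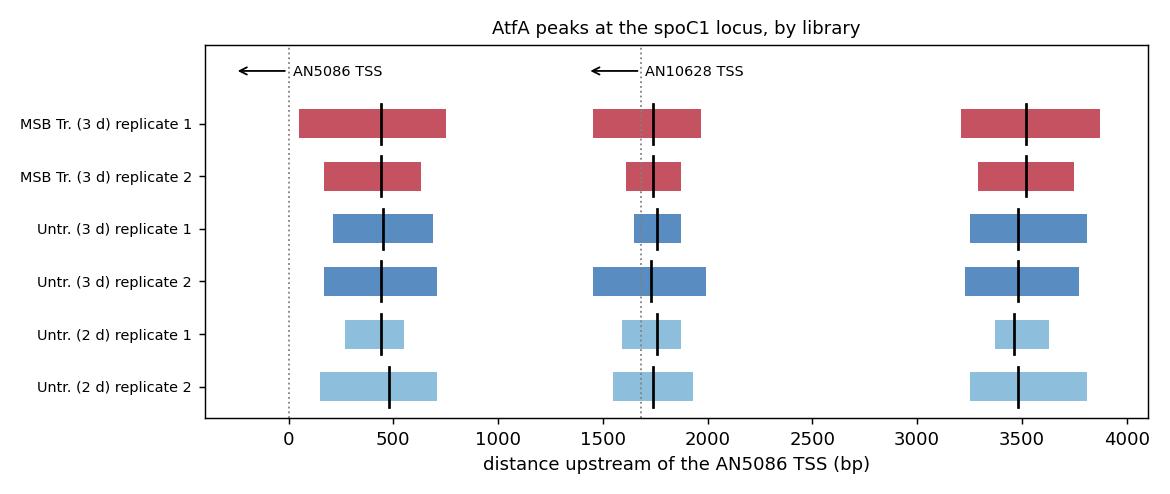
Peaks of the *spoC1* locus in the 6 libraries, drawn to scale as bars against the distance upstream of the AN5086 TSS in bp, with a black line at each summit and dotted lines and arrows for the start and direction of AN5086 and AN10628. The summits of the AN5086 region lie 441 to 481 bp upstream of its TSS, those of the AN10628 region 48 to 78 bp upstream of its own, and the third region starts beyond both.

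At AN5086 the peak lay well upstream of the start site. Its summit, the highest point of the track within the peak, was at position 29751 in both MSB Tr. (3 d) libraries, at 29761 and 29751 in the Untr. (3 d) libraries and at 29751 and 29791 in the Untr. (2 d) libraries. So 4 of 6 summits stood at the same position, 441 bp upstream of the TSS, and the others at 451 and 481 bp. The peak ran from 29361 to 30060 in MSB Tr. (3 d) replicate 1, the widest, and from 29581 to 29860 in Untr. (2 d) replicate 1, the narrowest. The stretch common to all 6 peaks, 280 bp, held all 6 summits. Positions of a CRE-type motif are listed for this promoter. The summit was 5 bp from the nearest of them in both MSB Tr. (3 d) libraries. That distance was 4 and 5 bp in Untr. (3 d) and 5 and 34 bp in Untr. (2 d). As the motif was itself found in the DNA under the peaks of this study, its nearness to the summits is no independent evidence. Because AN10628 is transcribed toward AN5086, the summits of this region also lay 1202 to 1242 bp downstream of the AN10628 start site.

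The AN10628 peak covered the start site itself. Summits were at 31051 in both MSB Tr. (3 d) libraries, at 31071 and 31041 in Untr. (3 d) and at 31071 and 31051 in Untr. (2 d), that is 58 and 58 bp, 78 and 48 bp, and 78 and 58 bp upstream of the TSS. These 6 summits spanned 30 bp, and the stretch common to all peaks, from 30961 to 31180, held each of them. Peak width varied more than position here. It was 520 and 260 bp in the MSB Tr. (3 d) libraries, 220 and 540 bp in Untr. (3 d) and 280 and 380 bp in Untr. (2 d). Replicates of a condition thus differed more than the condition means, which were 390, 380 and 330 bp in that order. No distance to a listed motif was computed for this gene. No genome sequence in these coordinates was used, so the letters under the peaks were not read.

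In the third region the summits of MSB Tr. (3 d) stood apart from those of the untreated libraries. They were at position 32831 in both MSB Tr. (3 d) libraries, at 32791 in both Untr. (3 d) libraries and at 32771 and 32791 in Untr. (2 d). The MSB summits thus lay 40 bp beyond the nearest untreated summit, away from AN10628, on tracks whose bounds move in steps of 20 bp. Of the 250 regions held by every library, 20.4% had summits that did not overlap between MSB Tr. (3 d) and Untr. (3 d), in either direction, 20.8% between Untr. (3 d) and Untr. (2 d), where the summits of the third region do overlap, and 3.6% (9 regions) had none that overlapped between MSB Tr. (3 d) and all 4 untreated libraries. This region was singled out after its values had been seen, and no test was made of the shift. The third region had its summits 1778 to 1838 bp upstream of the AN10628 start site. Its peak was 660 and 460 bp wide in MSB Tr. (3 d), 560 and 540 bp in Untr. (3 d), and 260 and 560 bp in Untr. (2 d), where replicate 1 was the narrow one.

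The spacing of the 3 summits was nearly the same in each library. From the AN5086 summit to the AN10628 summit it was 1260 to 1320 bp (median 1300 bp) and from there to the summit of the third region 1700 to 1780 bp (median 1745 bp). The summits of a region spanned 40 bp at AN5086, 30 bp at AN10628 and 60 bp in the third region, beside a median of 70 bp over the 250 regions held by all libraries. A span as small as that of the AN10628 region was found in 43 of those 250, one as small as that of the AN5086 region in 84 and one as small as that of the third region in 121.

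The height of the peaks could be compared only within a list, since each library has its own score scale. The score is a whole number written by the peak caller on that library's track, and its lowest value in a list ranged from 5309 to 17601. It was therefore turned into a percentile of the list, in which 100 is the highest score. The lists held 453 and 439 peaks in MSB Tr. (3 d), 473 and 451 for Untr. (3 d), and 473 and 434 for Untr. (2 d). They give no read counts, so the depth behind a peak is unknown. Lists also differed in how far their scores spread, since the ratio of the highest to the lowest score was 2.75 for MSB Tr. (3 d) replicate 2 and 10.9 for Untr. (2 d) replicate 1.

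At AN5086 the peak ranked in the upper part of every list. The score percentile was 93.8 and 81.5 in MSB Tr. (3 d), 83.5 and 89.5 for Untr. (3 d), and 72.2 and 95.4 for Untr. (2 d). The Untr. (2 d) replicates gave both the lowest and the highest value, and the other libraries fell between them. The mean was 87.7 ± 8.68 in MSB Tr. (3 d), 86.5 ± 4.21 in Untr. (3 d) and 83.8 ± 16.4 in Untr. (2 d) (SD, n = 2 each).

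The AN10628 peak was of middle rank. Its percentile was 73.7 and 62.0 in MSB Tr. (3 d), 73.8 and 59.3 for Untr. (3 d), and 49.5 and 77.9 for Untr. (2 d). Again the Untr. (2 d) replicates enclosed all other libraries, and in replicate 1 of that condition the score, 23101, was the median score of its list. The mean was 67.8 ± 8.32 in MSB Tr. (3 d), 66.5 ± 10.2 in Untr. (3 d) and 63.7 ± 20.1 in Untr. (2 d) (SD, n = 2 each).

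In the third region the peak ranked high in every library. The percentile was 96.9 and 89.4 in MSB Tr. (3 d), 96.3 and 91.1 for Untr. (3 d), and 90.6 and 98.8 for Untr. (2 d), where it had rank 6 of 434 peaks in replicate 2. The groups overlapped, and the lowest of the 6 values was that of MSB Tr. (3 d) replicate 2. The mean was 93.2 ± 5.30 in MSB Tr. (3 d), 93.7 ± 3.66 in Untr. (3 d) and 94.7 ± 5.84 in Untr. (2 d) (SD, n = 2 each).

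**Figure D2:**
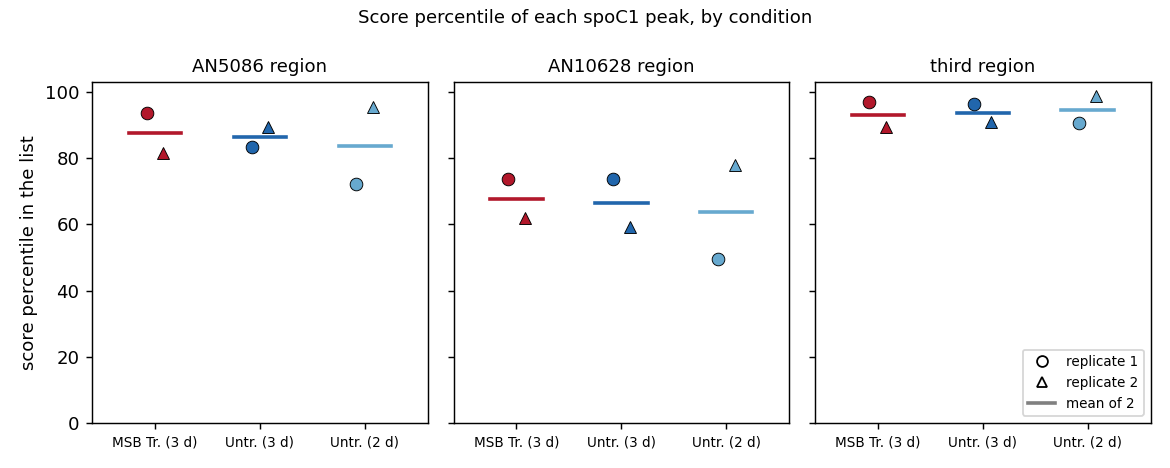
Score percentile of the peak within its list (100 is the highest score) for the 3 regions, by condition, with a point for each library and a bar for the mean of 2 replicates. The conditions overlap in each panel, and the Untr. (2 d) replicates lie farthest apart at AN5086 (72.2 and 95.4) and AN10628 (49.5 and 77.9).

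Whether MSB changed binding at the locus was asked by comparing MSB Tr. (3 d) with Untr. (3 d). The percentile differed by 1.20 points at AN5086, by 1.30 at AN10628 and by -0.56 in the third region (MSB Tr. minus Untr.; exact permutation test, two-sided, p = 1 for each, where 6 groupings allow no p below 0.333). Against all 4 untreated libraries the differences were 2.54, 2.73 and -1.06 points (exact permutation test, two-sided, p = 0.867, 0.867 and 0.667, where 15 groupings allow none below 0.0667). The age of the culture was asked with Untr. (3 d) minus Untr. (2 d), which gave 2.69, 2.87 and -1.0 points (exact permutation test, two-sided, p = 1 for each). With p values adjusted over these 9 comparisons, each p was 1. Each difference was smaller than the SD between replicates of either condition in it. In none of the 3 regions did the percentiles of the groups separate in any comparison. Over the 250 regions held by all libraries, percentiles were apart with MSB Tr. (3 d) above Untr. (3 d) in 29.2% and below it in 25.2%, with Untr. (3 d) above Untr. (2 d) in 17.2% and below it in 17.2%, and with MSB Tr. (3 d) above all untreated libraries in 10.8% and below them in 8% of regions. With 2 libraries a condition, these values cannot show that binding was equal. Leaving out 1 library turned the sign of each of these 9 differences. At AN10628, Untr. (3 d) minus Untr. (2 d) was 17.1 points without Untr. (2 d) replicate 2 and -11.3 without Untr. (2 d) replicate 1, and at AN5086 the same comparison was 14.3 and -8.90.

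The order of the 3 regions was the same in every library. The third region ranked above the AN5086 region, and the AN5086 region above the AN10628 region, in 6 of 6 libraries. The third region exceeded the AN5086 region by 7.88 ± 6.57 percentile points (SD, n = 6), with differences from 1.66 in Untr. (3 d) replicate 2 to 18.4 in Untr. (2 d) replicate 1. It exceeded the AN10628 region by 27.8 ± 7.61 points, between 21.0 and 41.1. The AN5086 region exceeded the AN10628 region by 20.0 ± 6.67 points, between 9.73 in Untr. (3 d) replicate 1 and 30.2 in Untr. (3 d) replicate 2. For each of these 3 pairs the exact permutation test by sign flips within libraries gave p = 0.03125, two-sided, the smallest that 6 libraries allow (adjusted over the 3 pairs 0.03125). Without any 1 library the order held, but the smallest possible p was then 0.0625. As scores within a list share a scale, they can also be set as ratios. The score of the third region was 1.03 to 1.42 times that of the AN5086 region and 1.25 to 2.12 times that of the AN10628 region, and the AN5086 score was 1.16 to 1.63 times the AN10628 score. The gap between the first pair was thus small in some libraries, with a ratio of 1.03 in Untr. (3 d) replicate 2 and of 1.07 in both MSB Tr. (3 d) libraries. Peak width did not follow this order throughout. The AN5086 peak was wider than the AN10628 peak in 4 libraries and as wide in the other two, while the third region's peak was wider than the AN5086 peak in 1 library, as wide in 3 and narrower in 2. With peak width ranked in place of the score, the third region minus the AN5086 region was -0.14 points, and the differences over the AN10628 region were 25.3 points for the third region and 25.4 points for the AN5086 region (exact permutation test, two-sided, p = 1, 0.125 and 0.125).

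Set against the 250 regions held by all libraries, the third region stood at place 22 by its mean percentile of 93.9 and the AN5086 region at place 46 with 86.0. The AN10628 region, at place 141 with 66.0, was close to the median of these regions, 68.7. The percentile of the third region varied by 9.44 points over the 6 libraries, and 27 of the 250 regions varied as little. At AN5086 and AN10628 the range was 23.2 and 28.4 points, beside a median of 28.0 over these regions. A region near the top of its lists has less room to vary.

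**Figure D3:**
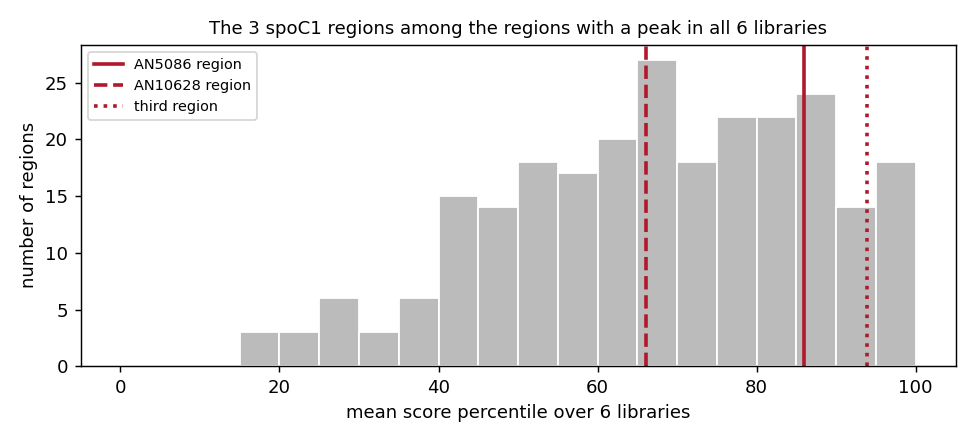
Histogram of the mean score percentile over 6 libraries for the 250 regions that had a peak in all of them, in steps of 5 points, with lines for the 3 *spoC1* regions. The third region (93.9) and the AN5086 region (86.0) stand in the upper part and the AN10628 region (66.0) near the median of 68.7.

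Position chose the locus, so the following on the spacing of AtfA regions is a description. In a window of 3820 bp, the length of the locus itself, around its middle, the AN10628 region had 3 regions, itself included. The AN5086 region and the third region each had 2. Of all 707 regions, 5.37% had at least 3. Among the 250 regions held by all libraries, 1.6% had at least 3 such regions in a window of that length. There were 40 runs of 3 consecutive regions that each had a peak in all libraries, with a median length of 44310 bp, and the *spoC1* run was the second shortest, after one of 3500 bp.

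The nearest peaks outside the interval were 6320 bp before it, in a region from 22001 to 23040, and 4020 bp after it, in a region from 37201 to 37980. The region before it, the first with a peak on the chromosome III sequence, had percentiles between 33.7 and 78.1 (mean 58.4), and the region after it between 77.0 and 93.7 (mean 85.9). A further region from 38461 to 39220 was tied to AN10631, a gene of unknown function, with 6 of 6 listed distances, and had a mean percentile of 85.1. Each of these was held by all 6 libraries, so that 6 consecutive regions within 17220 bp were bound in every library. The next one, from 45101 to 45780, had a peak in 4 libraries and a mean percentile of 21.3. AN10631 was named after its values had been seen.

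**Figure D4:**
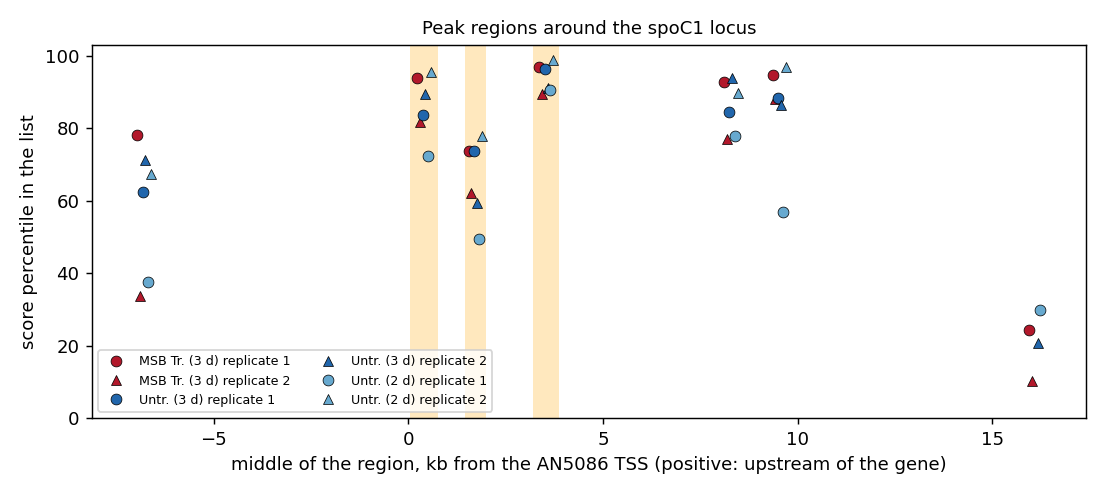
Score percentile in each library (points, shifted sideways for clarity) of the peak regions around the locus, against the distance of the region's middle from the AN5086 TSS in kb, with the 3 *spoC1* regions shaded. The regions on either side also have a peak in all libraries, up to the last one shown, which has a peak in 4 and percentiles from 10.3 to 29.9.

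A list of 16 other conidial genes was set beside the *spoC1* pair. It holds structural and stress genes of conidia and regulators of their formation, and it was written with earlier results of these data known. Of these, 8 were tied to a region, and each of the 8 regions had a peak in all 6 libraries, as had 35.4% of all regions. A gene was tied only with at least 5 listed distances, which selects regions with peaks in most libraries, so nothing is read from that count. Where the distances of a gene met several regions, that with peaks in most libraries was kept, then that of highest mean percentile. *conF* and *conJ*, which encode conidium-specific proteins, had mean percentiles of 99.6 and 99.2, *ccgA*, the counterpart of a clock-controlled gene of *Neurospora crassa*, 98.9, and *catA*, the conidial catalase gene, 97.7. Next came *dlpA*, which encodes a dehydrin-like protein, with 95.3, and *velB*, a *velvet* regulator gene, with 91.0. *cetA*, which encodes a secreted thaumatin-like protein, had 69.6 and *awh11*, which encodes a putative heat shock protein, 51.8. The AN5086 region, with 86.0, thus stood below the first 6 of these and the AN10628 region, with 66.0, between *cetA* and *awh11*, without a test of these differences. *vosA*, a *velvet* regulator gene, had 3 listed distances, too few to be tied to a region. The curated list, searched by name, did not hold the hydrophobin genes *rodA* and *dewA*, the pigment genes *wA* and *yA* or the regulators *brlA*, *abaA* and *wetA*. They count here as not tied to a region. The uncurated list was not searched for them, so this does not show that they lack an AtfA peak.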

How the data were processed

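Peak lists of 6 ChIP-seq libraries, 2 for each of 3 conditions, were grouped by their GEO titles. Single-end reads were aligned by the authors to the MycoCosm assembly of *A. nidulans* (Bowtie2 2.2.4), freed of PCR duplicates (Picard 3.4.0) and scaled to RPKM (deepTools), and MACS2 then called the peaks of every library on its own. The deposited score is a whole number on the scale of its own list. The deposited columns for fold, p and q hold 0 and were not used. Depth is unknown.

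Bounds are given counted from 1. Regions join all peaks with 1 bp or more in common, and scores were ranked within a list, ties at their mean rank. Where a library had several peaks in a region, that with the highest score was used. Conditions were compared over libraries and regions within libraries by exact permutation tests (Python 3.11.15, numpy 2.4.6), with p adjusted by Benjamini and Hochberg. A gene was tied to a region when at least 5 listed distances, within 1 bp, all fell on peak centres of the listed condition for one TSS, and any other place on its RefSeq chromosome (ASM1142v1, used for names, chromosomes and gene order) met fewer. The listed distances are those of the manually curated gene list in the study's supplement, not of the peak lists. A gene absent from it may have been dropped in curation. The procedures were tested on simulated data.

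The members and gene lists were chosen with earlier results of these data known. Named were the *spoC1* pair, the conidial list and RefSeq neighbours. Alternatives were ranks among shared regions, peak width, log2 of score over list median, a replicate block, leaving out each library, 50% reciprocal overlap, the 300 best peaks and merging within 100 bp. The planned motif search was not made, as no promoter sequence was used here.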

Additional observations from a re-analysis of the deposited data

Results flagged for a closer look

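Over the 3 regions, 9 sets of values, each from the 4 untreated libraries of both ages, were screened for a library far from the others. In 2 sets, both of the third region, Untr. (2 d) replicate 1 stood out. Its peak was 260 bp wide, against 540 to 560 bp in the other untreated libraries, and its summit was at position 32771, against 32791 in each of the others. This list also had the smallest median peak width, 300 bp beside 340 bp in the other untreated lists. Chance marks about 1 in 20 groups of continuous values, a rate that does not hold for the summit, where the other 3 values are tied.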

How the results depend on the processing

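The 9 differences between conditions rest on 2 libraries a group, or 4 for the untreated libraries together, and none kept its sign throughout. Leaving out each library in turn, MSB Tr. (3 d) minus Untr. (3 d) ranged from -4.94 to 7.33 percentile points at AN5086, from -5.94 to 8.53 at AN10628 and from -4.31 to 3.19 in the third region, Untr. (3 d) minus Untr. (2 d) from -8.90 to 14.3, from -11.3 to 17.1 and from -5.13 to 3.12, and MSB Tr. (3 d) minus untreated from -3.59 to 8.68, from -3.15 to 8.62 and from -4.81 to 2.69. With the log2 of the score over the list median, 5 of 9 reversed, at AN5086 to -0.14, -0.10 and -0.19 in the order of comparisons above, and at AN10628 to -0.017 and -0.015 for MSB Tr. (3 d) against Untr. (3 d) and against untreated. With peak width as the ranked value, those at AN10628 were -0.31, -0.77 and -0.70 points, and in the third region Untr. (3 d) minus Untr. (2 d) was 23.4 and MSB Tr. (3 d) minus untreated 6.03. Ranked among shared regions only, the first comparison at AN10628 gave -0.16. The causes were not tested.

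The order of the regions kept its direction in every library left out, with differences of 17.9 to 22.0 for AN5086 over AN10628, 5.77 to 9.12 for the third region over AN5086 and 25.2 to 29.2 for the third region over AN10628 (exact permutation test, p = 0.0625, the smallest that 5 libraries allow). By peak width these were 25.4 and 25.3 points over AN10628 (exact permutation test, p = 0.125 each), while the third region minus AN5086 was -0.14 (p = 1). Ranks among shared regions and log2 scores changed no call. Presence in 6 libraries changed only in the third region, to 5 with 50% reciprocal overlap.

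Replicate numbers were not used to pair the libraries in the main comparisons. The correlations of replicate deviations over 250 regions were 0.24 between MSB Tr. (3 d) and Untr. (3 d) and -0.40 between MSB Tr. (3 d) and Untr. (2 d). Between Untr. (3 d) and Untr. (2 d) the value was -0.29. These values were the only basis for this choice, and they cannot show whether the replicates were paired. The replicate block cannot move a difference of means here, as each condition has each number once, and its values, such as 1.20 points at AN5086 between MSB Tr. (3 d) and Untr. (3 d), are no further evidence.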
